A study of Rattus norvegicus with 16 samples.

Results

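The hippocampus of rats labelled anxiety-susceptible after chronic mild stress, CMS, in which rats meet varied minor stressors over weeks, was compared with that of unstressed controls. The rule took the samples with these 2 group labels, which gave 4 anxiety-susceptible and 4 control arrays, 8 of the 16 arrays of the series. All were male Sprague-Dawley rats of 250 g, an outbred albino stock; the stressed rats had 8 weeks of CMS and the controls had none. The other 8 arrays, 4 each, labelled insusceptible and depression-susceptible, came from rats with the same 8 weeks of CMS and served for comparison. Their ages and the behavioural criteria behind the labels are not given in the sources used here, nor is it stated whether the 4 arrays of a group came from 4 animals.

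The hippocampus holds the granule cells of the dentate gyrus, the pyramidal cells of the CA fields and many kinds of GABA-releasing interneuron. It is rich in receptors for corticosteroids, and the hormone-bound receptors enter the nucleus and induce a set of target genes that dampen inflammation and change metabolism. Neuronal activity induces another set, the immediate early genes, within minutes, many of them through the factor CREB, which binds the cyclic AMP response element (CRE). The choroid plexus, a secretory epithelium that makes cerebrospinal fluid, lies in the ventricle against the hippocampus.

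RNA was measured on single-colour Agilent arrays, and each value below is the log2 signal of a probe minus the 75th percentile of its array, so that 0 is the level of a fairly bright probe. Levels of different genes cannot be set against each other on this scale. The control arrays lay 2 each on slides 1 and 2, and the 4 anxiety-susceptible arrays lay on slide 3 and were scanned on another day; group, slide and scan day cannot be told apart. The 75th percentile of the raw signal was 4609 to 4903 on the control arrays and 1630 to 1903 on the anxiety-susceptible arrays, and 66.8% to 71.8% of probes were well above background on these 8 arrays. The pyramidal cell gene Wfs1 was well above background on all 8 arrays, while the granule cell factor Prox1 was so on only 2 control arrays and 1 anxiety-susceptible array. Arrays of 1 group on 1 slide were averaged before the test, so the anxiety-susceptible group entered as 1 sample, the controls as 2 and the whole fit as 6; a count over the 16 arrays taken singly is given beside the counts of each gene group.

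A gene was called when the adjusted p of limma, with Benjamini-Hochberg adjustment, was below 0.05, and held when it was called in the same direction after quantile normalization too. Of 11317 genes tested, 1282 (11.3%) were called higher and 1710 (15.1%) lower in the anxiety-susceptible hippocampus. Of these, 836 (7.39%) were held higher, with a median difference of 0.89, and 1334 (11.8%) held lower, with a median of -0.77. The 16 arrays taken singly gave 3330 higher (29.4%) and 4692 lower (41.5%). Without the control arrays of slide 1 the counts were 279 higher (2.47%) and 162 lower (1.43%), and without those of slide 2 they were 233 (2.07%) and 186 (1.65%). All 4 anxiety-susceptible arrays lay above every control array for 3137 genes (27.7%) and below every one for 4451 (39.3%). A lack of overlap, stated below for single genes, was therefore common among all genes. It compares arrays that entered the fit as 1 anxiety-susceptible sample.

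The difference moved with the brightness of the probe. With the genes in 4 equal bins of brightness, the median was 0.18 in the dimmest, 0.04 and -0.09 in the middle bins and -0.30 in the brightest, against -0.20, -0.14, -0.06 and 0.00 after quantile normalization. The split of called genes moved with it, to 1185 higher and 2187 lower after quantile normalization and to 3449 higher and 1915 lower with normexp, where the balance of directions reversed. Over all genes the median was -0.07, which is the value to read each list against. With normexp background correction it was 0.07, and 0.76 in the dimmest bin. The cause was not tested.

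**Figure D1:**
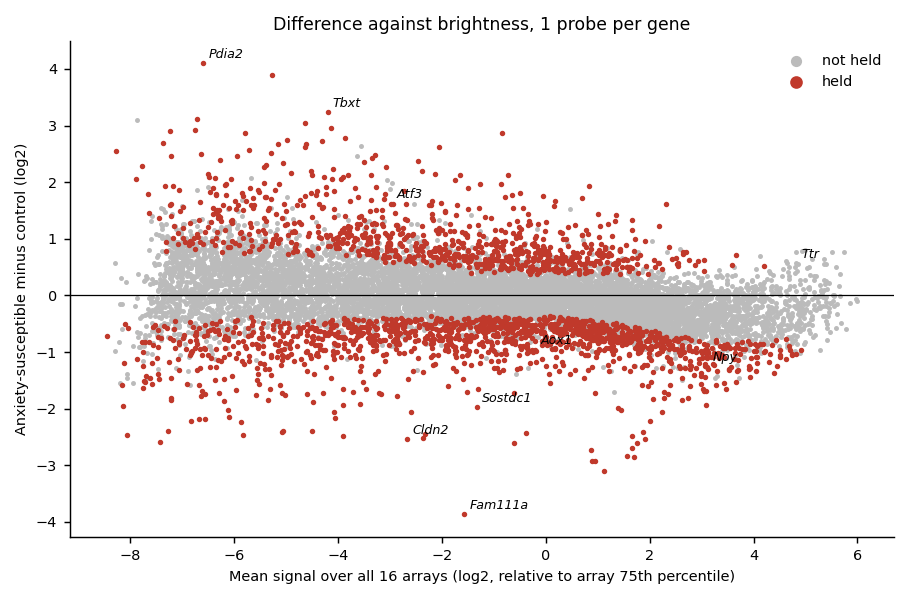
Each point is 1 gene, with its mean log2 signal over all 16 arrays (relative to the 75th percentile of the array) across and the difference between anxiety-susceptible and control arrays in log2 up; held genes are red. Held rises are spread over dim and middling probes and held falls over all brightnesses, with Fam111a lowest at -3.86; probes not well above background in 1 group, such as Pdia2 at the top, are drawn at their measured values, though their change has only a lower bound.

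Among genes well above background on all 16 arrays, 2 were held in the same direction in 3 contrasts, Atf3 and Aox1. The contrasts were with the controls and with each other stressed group. Genes dim in any group could not be counted. Atf3 encodes a stress-induced transcription factor of the ATF/CREB family. Its level was -3.17, -3.15, -3.13 and -3.13 in the control arrays and -1.54, -1.57, -1.63 and -1.38 in the anxiety-susceptible arrays. The groups lay far apart, and the difference was 1.62 ± 0.09 (SE), 3.07-fold, with an adjusted p of 0.0062. It kept its call without either control slide (adjusted p 0.031 and 0.032). Against the insusceptible arrays, whose mean of -4.04 was below the controls, the difference was 2.52 (adjusted p 0.037), and against the depression-susceptible arrays, with a mean of -3.17, it was 1.64 (adjusted p 0.036).

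Aox1 encodes aldehyde oxidase, which oxidises aldehydes and many drugs. It measured -0.57, -0.54, -0.60 and -0.57 in the control arrays and -1.49, -1.52, -1.46 and -1.66 in the anxiety-susceptible arrays. It fell by 0.96 ± 0.09 (SE; adjusted p 0.011), with no overlap between the groups. In the other stressed groups it stood above the controls, at 0.76 in the insusceptible and 0.53 in the depression-susceptible arrays. The differences of the anxiety-susceptible arrays from these were -2.29 and -2.07 (adjusted p 0.037 and 0.027). Without a control slide the adjusted p against the controls was 0.052 or 0.053.

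The largest fall of all was that of Fam111a, a serine protease that acts in DNA replication and antiviral defence. Its control levels were -0.76, -0.80, -0.47 and -0.49, and its anxiety-susceptible levels -4.56, -4.22, -4.53 and -4.64. It fell by 3.86 ± 0.20 (SE; adjusted p 0.006), a 14.5-fold change. The insusceptible arrays, at a mean of -0.76, lay by the controls, and those of the depression-susceptible group averaged 0.05 over their 2 slides, with 1 array left out as a spot outlier. The anxiety-susceptible arrays differed from the insusceptible ones by -3.72, with an adjusted p of 0.057, or 0.035 after quantile normalization, and from the depression-susceptible ones by -4.53 (adjusted p 0.028).

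**Figure D2:**
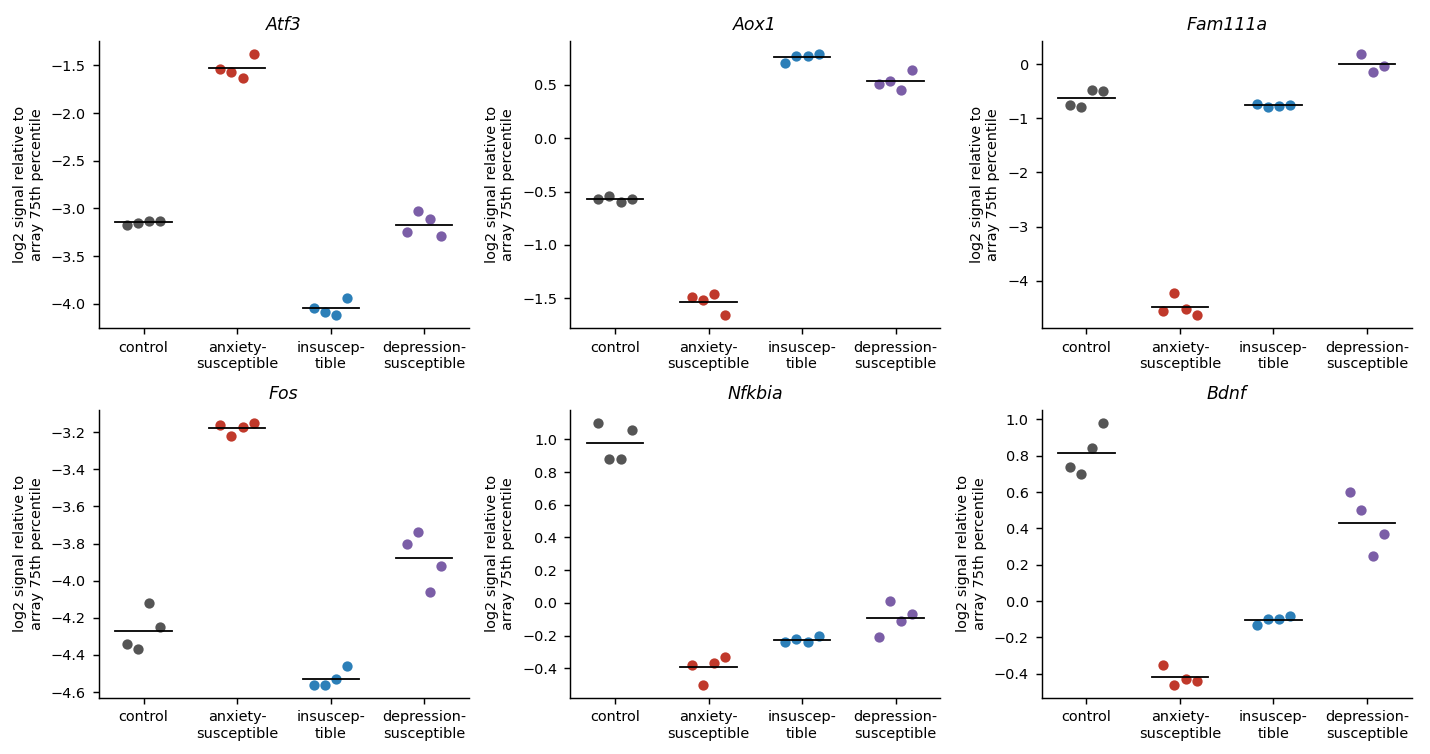
Log2 signal relative to the 75th percentile of the array, up, for 6 genes in the 4 groups across; each point is 1 array and each bar a group mean. For Atf3, Aox1 and Fam111a the anxiety-susceptible arrays (red) lie apart from all other groups; for Nfkbia and Bdnf all 3 stressed groups lie below the controls.

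Against the insusceptible arrays 14 genes differed, 12 higher (0.106%) and 2 lower (0.0177%), and against the depression-susceptible arrays 23 were higher (0.203%) and 23 lower (0.203%). Both counts were 0 in limma without the control arrays of either slide, when the spread rests on the 2 depression-susceptible samples alone; 968 and 2841 genes then had an unadjusted p below 0.05. Such a threshold marks a share of 0.05 of genes even where nothing differs, here and in later unadjusted counts. The main fit tested 11317 and 11308 genes in these contrasts, in that order. The called counts were 0 and 8 with no filter on dim probes, and 50 (0.309% higher, 0.133% lower) and 1169 (2.92% and 7.42%) after quantile normalization. The lower gene besides Aox1 was Ifit1, an interferon-induced antiviral protein. It measured -4.75, -4.80, -4.63 and -4.73 in the controls and -6.49, -6.20, -6.70 and -6.53 in the anxiety-susceptible arrays, of which 1 was well above background. It fell by 1.75 against the controls (adjusted p 0.0062), or by 0.13 with normexp, and was lower than in the insusceptible arrays (difference -2.94, adjusted p 0.037). The 12 higher genes were Atf3, 7 members of the choroid plexus list described further on, and Scgb1c1, Vegfb, Cnmd and Pon1, the last 4 named after their values were seen. Cnmd encodes chondromodulin, an inhibitor of vessel growth. The insusceptible arrays were not well above background for Cnmd, Pon1 and Vegfb, so the anxiety-susceptible level was at least 7.07-fold, 5.09-fold and 6.95-fold higher; these bounds set the dim probe at the lowest signal that counts as above background. Scgb1c1, a secretoglobin, was higher by 2.22 (adjusted p 0.043).

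Of 25 immediate early and activity-induced genes tested, 5 were called higher and 6 lower, and 5 each were held (11.3% and 15.1% of all genes were called, and 7.39% and 11.8% held). The 16 arrays taken singly called 8 higher and 14 lower, and the median was -0.25 (-0.08 after quantile normalization). The 5 that rose were Sik1, Atf3, Fos, Klf4 and Ier2. Sik1, a CREB-restraining kinase that CREB itself induces, measured -7.46, -7.90, -7.41 and -7.46 in the controls and -3.75, -3.73, -3.65 and -3.55 in the anxiety-susceptible arrays. It rose by 3.89 ± 0.14 (SE; adjusted p 0.0057), although only 1 control array was well above background, and by 2.35 with normexp. It was also above the controls in the insusceptible (2.84) and depression-susceptible (2.42) arrays, which were set against the same controls, and did not differ from the insusceptible arrays by the test (1.05, adjusted p 0.18).

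Fos, a component of the AP-1 factor and the usual marker of recent neuronal activity, measured -4.34, -4.37, -4.12 and -4.25 in the controls. The anxiety-susceptible arrays gave -3.16, -3.22, -3.17 and -3.15. They all lay above the controls, and the rise was 1.1 ± 0.15 (SE; adjusted p 0.02). Klf4, a zinc-finger factor, rose by 0.65 (adjusted p 0.027) and Ier2, a nuclear early-response protein, by 0.49 (adjusted p 0.03). These 3 genes averaged lower in the insusceptible than in the control arrays (-0.26, -0.44 and -0.51), and the anxiety-susceptible arrays exceeded the insusceptible ones by 1.36, 1.08 and 1.0, with adjusted p of 0.14, 0.13 and 0.11. Without a control slide the calls of Atf3 and Sik1 remained and those of Fos, Klf4 and Ier2 did not (adjusted p 0.055 to 0.11).

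The 5 held falls were those of Ptgs2, Nptx2, Gadd45b, Pcsk1 and Nr4a2. Ptgs2 encodes cyclooxygenase-2, which neurons induce on activity, and measured -1.67, -1.68, -1.59 and -1.59 in the controls against -2.74, -2.69, -2.71 and -2.72. The groups did not overlap, and the difference was -1.08 ± 0.10 (SE; adjusted p 0.011), with an adjusted p of 0.047 without the control arrays of slide 1 and 0.052 without those of slide 2. Nptx2, a pentraxin that gathers AMPA receptors, differed by -0.57 (adjusted p 0.024). The differences of Gadd45b, Pcsk1 and Nr4a2 were -0.45, -0.44 and -0.44. Other genes of the same class did not pass the test, among them Arc (-0.14, adjusted p 0.51), Egr1 (-0.71, adjusted p 0.13), Junb (-0.25, adjusted p 0.17) and Nr4a1 (-0.29, adjusted p 0.089).

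Upstream sequence was read for Atf3, Aox1 and the early genes that rose, from RefSeq promoters of assembly GRCr8, in the 250 bases before the annotated start; 4 of the 6 genes, Sik1, Klf4, Ier2 and Aox1, had an entry. The windows of 3 genes are shown for the letters they hold: the full CRE (TGACGTCA) in Ier2, 2 copies of its CGTCA core in Sik1 and an AP-1 site (TGACTCA) in Aox1, in capitals.
Ier2 (chr19:40399123-40399372, + strand): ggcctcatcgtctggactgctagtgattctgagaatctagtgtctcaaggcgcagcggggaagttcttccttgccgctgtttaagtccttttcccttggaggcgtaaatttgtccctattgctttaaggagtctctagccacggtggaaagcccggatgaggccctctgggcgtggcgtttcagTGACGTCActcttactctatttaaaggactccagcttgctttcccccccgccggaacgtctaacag
Sik1 (chr20:9958647-9958896, - strand): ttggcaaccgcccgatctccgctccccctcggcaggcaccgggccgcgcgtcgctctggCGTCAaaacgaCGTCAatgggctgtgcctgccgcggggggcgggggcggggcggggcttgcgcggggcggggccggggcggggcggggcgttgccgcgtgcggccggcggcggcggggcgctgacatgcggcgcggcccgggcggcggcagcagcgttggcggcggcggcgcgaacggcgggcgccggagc
Aox1 (chr9:67073641-67073890, + strand): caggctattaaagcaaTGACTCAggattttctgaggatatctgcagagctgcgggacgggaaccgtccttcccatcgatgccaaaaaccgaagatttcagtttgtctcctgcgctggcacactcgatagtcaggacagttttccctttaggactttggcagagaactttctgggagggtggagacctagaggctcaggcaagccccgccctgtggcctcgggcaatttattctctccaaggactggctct

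The CRE of Ier2 began 66 bases before the start, and the CGTCA cores of Sik1 began 191 and 180 bases before it. The AP-1 letters of Aox1 began 234 bases before the start. Searched on both strands, the CRE letters were in 1.59% of the 33469 promoters of the table, the core in 18.2% and the AP-1 letters in 4.05%; every CRE also holds the core on each strand. Of the motifs searched, which also included the E-box CACGTG (5.59% of promoters) and CCAAT (34.0%), Klf4 held none in its window. These matches describe letters only.

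Several genes that glucocorticoids induce were lower. Of 24 tested, limma called 0 higher and 10 lower, against 11.3% and 15.1% of all genes. Held lower were 7, against 11.8% of all genes. At an unadjusted p below 0.05 by limma, 1 was higher and 11 were lower. The 16 arrays taken singly called 5 higher and 12 lower, against 29.4% and 41.5% of all genes. The median of the list was -0.16. Nfkbia, the inhibitor that retains NF-kappaB in the cytoplasm, measured 1.1, 0.88, 0.88 and 1.06 in the controls and -0.38, -0.50, -0.37 and -0.33 in the anxiety-susceptible arrays. The groups did not overlap, and the difference was -1.38 ± 0.09 (SE; adjusted p 0.0068).

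Sgk1, a kinase that controls ion channels, measured 3.41, 3.25, 3.08 and 2.98 in the controls and 2.08, 2.22, 2.19 and 2.10 in the anxiety-susceptible arrays, a difference of -1.04 ± 0.19 (SE; adjusted p 0.033). Klf9, a factor with a well-known glucocorticoid response, differed by -0.97 (adjusted p 0.018; 1 control array was left out as a spot outlier). Tsc22d3, which encodes the anti-inflammatory protein GILZ, differed by -0.93 (adjusted p 0.011). Pdk4, a kinase that shuts pyruvate oxidation, differed by -1.49 (adjusted p 0.029), or by -0.03 with normexp on its dim probe. Cebpb and Gadd45a were the other held members, at -0.67 and -0.47. Fkbp5, the receptor's chaperone and a common readout of its activity, did not pass (0.17, adjusted p 0.36), nor did Per1 (0.37, adjusted p 0.22) and Dusp1 (0.02, adjusted p 0.88), so the list did not move as a block. Without the control arrays of slide 1 or of slide 2, 2 members were called lower.

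Of 12 genes of the corticosteroid receptors, their chaperones and the CRH family, 1 was called and held, Nr3c2, the mineralocorticoid receptor. That is a smaller share than the 15.1% called lower and 11.8% held lower of all genes. Nr3c2 is described as a single gene. Its levels were 3.30, 3.25, 3.05 and 3.14 in the controls and 2.38, 2.46, 2.43 and 2.47 in the anxiety-susceptible arrays. The groups did not overlap, and the difference was -0.75 ± 0.12 (SE; adjusted p 0.026), or -0.35 after quantile normalization (adjusted p 0.048). Nr3c2 differed from the same controls by -0.82 in the insusceptible and -0.26 in the depression-susceptible arrays. Over the 16 arrays 4 members were called higher and 4 lower, against 29.4% and 41.5% of all genes. The glucocorticoid receptor Nr3c1 (-0.24, adjusted p 0.18), the peptide Crh (-0.33, adjusted p 0.22) and its receptor Crhr1 (0.27, adjusted p 0.23) did not pass.

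Genes of the GABA system were lower for several receptor subunits and for one of the synthetic enzymes. Of 14 GABA-A receptor subunits tested, 6 fell and 1 rose, all 7 were held, and the median was -0.52 (-0.59 after quantile normalization). For comparison, 15.1% of all genes were called lower and 11.3% higher, 11.8% and 7.39% held, and 41.5% and 29.4% called over the 16 arrays. The 16 arrays taken singly called 8 lower and 1 higher, and 3 were called lower without the control arrays of either slide. Gabrg1, a gamma subunit, measured 0.28, 0.07, 0.02 and 0.01 in the controls and -1.17, -1.25, -1.23 and -1.16 in the anxiety-susceptible arrays. It lay lower in all 4, by a difference of -1.30 ± 0.12 (SE; adjusted p 0.011).

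Gabra4, which forms extrasynaptic receptors with the delta subunit, measured 0.37, 0.64, 0.64 and 0.65 in the controls and -0.66, -0.70, -0.66 and -0.64 in the anxiety-susceptible arrays. The difference was -1.24 ± 0.11 (SE; adjusted p 0.011), again without overlap. The synaptic subunit Gabra2 differed by -0.54 (adjusted p 0.033). Gabrq, the theta subunit, had the largest difference, -2.73 ± 0.40 (SE; adjusted p 0.023), with 1 control array left out as a spot outlier. Gabrb1 rose by 0.37 (adjusted p 0.049), while Gabra5 (-0.62, adjusted p 0.079) and Gabrd (-0.18, adjusted p 0.24) did not pass. None of the 14 was called against the insusceptible or the depression-susceptible arrays.

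Gad2, the GABA-making enzyme of nerve terminals, measured -1.59, -1.59, -1.46 and -1.63 in the controls and -2.91, -2.93, -2.95 and -2.92 in the anxiety-susceptible arrays. Its difference was -1.36 ± 0.09 (SE; adjusted p 0.0069) and kept its call without either control slide. For Gad2 the insusceptible and depression-susceptible arrays also stood below the same controls, by differences of -1.15 and -0.69. Gad1, the form that supplies GABA throughout the cell, went the other way without passing the test (0.35, adjusted p 0.10), and was called after quantile normalization (0.75, adjusted p 0.017). The vesicle transporter Slc32a1 (-0.27) did not pass. Of the 13 genes of GABA synthesis, transport and GABA-B receptors, 1 was called higher and 2 lower, and Gad2 alone was held. This list did not stand out from all genes, of which 11.3% were called higher and 15.1% lower. The 16 arrays gave 4 higher and 7 lower.

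**Figure D3:**
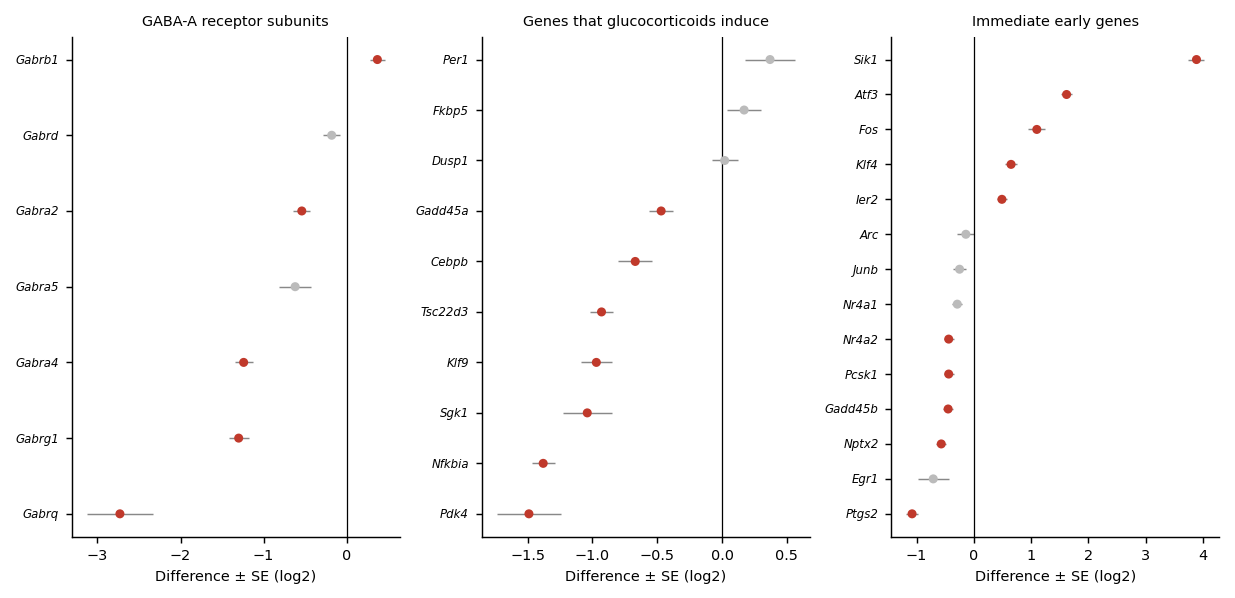
Differences between anxiety-susceptible and control arrays in log2, across, with bars of 1 standard error, for the members of 3 gene lists that were examined singly; red points are held. Most held GABA-A subunits and all held glucocorticoid-induced genes lie below 0, while the held immediate early genes lie on both sides, with Ptgs2 lowest at -1.08. Sik1, furthest to the right, was well above background on only 1 control array.

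Among 23 interneuron peptides and markers, 6 were called lower, of which 4 were held, Npy, Kit, Cnr1 and Reln (15.1% and 11.8% of all genes). At an unadjusted p below 0.05, 8 were lower and 2 higher, and the 16 arrays gave 11 lower and 7 higher. Npy, a peptide of dendrite-targeting interneurons that dampens excitation and anxiety, measured 3.97, 4.02, 3.84 and 3.76 in the controls and 2.53, 2.67, 2.66 and 2.69 in the anxiety-susceptible arrays. All 4 lay below the controls, by a difference of -1.26 ± 0.13 (SE; adjusted p 0.013). The fall of Npy was not particular to this group: the insusceptible and depression-susceptible arrays differed from the same controls by -1.38 and -0.51. Kit differed by -0.82, the cannabinoid receptor Cnr1 by -0.70 and Reln, the secreted glycoprotein reelin, by -0.63 (adjusted p 0.018, 0.032 and 0.022). Penk, the enkephalin precursor, was called (-0.61, adjusted p 0.022) but not held (-0.25 after quantile normalization). The defining markers of the main interneuron classes did not pass: Pvalb (-0.31, adjusted p 0.084), Sst (-0.09, adjusted p 0.64), Vip (-0.11, adjusted p 0.53) and Cck (-0.28, adjusted p 0.31). The median of the list was -0.11, near that of all genes, and 0.02 after quantile normalization; Npy alone was called without either control slide (adjusted p 0.046 and 0.041).

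Of 23 neuropeptide receptors 1 was called higher and 1 lower (7 each over the 16 arrays), and 1 was held, Npy2r, the release-controlling receptor of neuropeptide Y, which differed by -0.70 (adjusted p 0.021) and by -0.22 with normexp. Npy1r did not pass (-0.27, adjusted p 0.094). Of 22 receptors for serotonin, noradrenaline, dopamine and histamine, 3 were called higher and 7 lower, with 1 and 6 held, and the 16 arrays gave 5 and 8. Over all genes 11.3% were called higher and 15.1% lower, and with normexp the list turned to 10 higher and 2 lower. Htr2a, an excitatory serotonin receptor, measured -4.46, -4.48, -4.63 and -4.54 in the controls and -5.78, -6.16, -5.91 and -5.91 in the anxiety-susceptible arrays. They did not overlap (difference -1.41 ± 0.11, SE; adjusted p 0.0091), yet the difference was -0.19 with normexp. Htr2a differed from the same controls by -1.18 in the insusceptible and -0.46 in the depression-susceptible arrays.

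The histamine receptor Hrh3, a brake on transmitter release, differed by -1.30 (adjusted p 0.035; 1 control array was left out as a spot outlier), and by -1.34 with normexp. Htr5a, Htr1b, Drd1 and Htr1a were held at -1.01, -0.85, -0.80 and -0.54. With normexp these differences were 0.33, 0.07, -0.11 and 0.86, so that 3 of these 4 dim probes changed sign, and the arrays of Htr1a overlapped. Adrb1, the beta-1 adrenoceptor, rose by 0.93 (adjusted p 0.013). Among metabotropic glutamate receptors, where 3 of 7 were called higher and 1 lower (4 and 3 over 16 arrays), Grm3 differed by -0.66 (adjusted p 0.031), and Grm2, not well above background in the controls, was at least 3.64-fold higher. The kainate receptor subunit Grik5 was the 1 member of 14 ionotropic receptor subunits that fell (difference -1.56, adjusted p 0.049), against 2 called higher. The 16 arrays gave 3 and 8. Shares called over all genes were 11.3% higher and 15.1% lower.

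Of 14 neurotrophins, other growth factors and their receptors, 2 rose and 2 fell, all held (6 and 3 over the 16 arrays). These counts are near the shares of all genes, 11.3% called higher and 15.1% lower. The falls were of Bdnf and Ntf3, while the neurotrophin Ntf4 was not called (0.42). Bdnf, the growth factor that sustains synapses and is itself activity-induced, measured 0.74, 0.70, 0.84 and 0.98 in the controls and -0.35, -0.46, -0.43 and -0.44 in the anxiety-susceptible arrays. The difference was -1.24 ± 0.16 (SE; adjusted p 0.018), without overlap. Ntf3 differed by -0.52 (adjusted p 0.038), while the vascular factor Vegfa rose by 0.71 (adjusted p 0.031) and Gfra2, a receptor of the neurturin pathway, by 0.46 (adjusted p 0.038). Ntrk2, the receptor of BDNF, did not pass (0.40, adjusted p 0.092), though it was called after quantile normalization (0.78, adjusted p 0.012). No member of this list was called without a control slide: for Bdnf the adjusted p was then 0.051 or 0.059.

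In the MAPK pathway, which neurotrophin receptors switch on, 3 of 13 regulators fell and 2 rose, all held (8 and 2 over the 16 arrays). Among all genes 15.1% were called lower and 11.3% higher, and 11.8% and 7.39% were held. Rasgrp1, an activator of Ras, measured 2.29, 2.28, 2.23 and 2.34 in the controls and 0.94, 0.96, 0.97 and 0.96 in the anxiety-susceptible arrays. The arrays of each group lay close together, and the difference was -1.33 ± 0.10 (SE; adjusted p 0.0086). The phosphatases Dusp6 and Dusp2, which switch MAP kinases off, differed by -0.78 and -0.69 (adjusted p 0.036 and 0.028), and Dusp5 rose by 0.45 (adjusted p 0.037). The other riser, Rasgrf1, is among the largest rises given further on.

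Of 33 genes of the synaptic vesicle release machinery, 13 were called lower and 2 higher, with 10 and 1 held. The 16 arrays gave 20 and 5. The shares of all genes were 15.1% called lower and 11.3% higher, 11.8% and 7.39% held, and 41.5% and 29.4% over the 16 arrays. Syt1, the calcium sensor of fast release, measured 1.14, 1.18, 1.04 and 1.0 in the controls and -0.16, -0.14, -0.11 and -0.11 in the anxiety-susceptible arrays. It lay lower in all 4, by a difference of -1.22 ± 0.15 (SE; adjusted p 0.016). Syt1 differed from the same controls by -1.18 in the insusceptible and -0.63 in the depression-susceptible arrays. The active zone scaffolds Pclo and Rims1 differed by -1.01 and -1.05 (adjusted p 0.014 and 0.027), and the vesicle protein Syp by -1.04 (adjusted p 0.031). Cplx2, a complexin that clamps release, rose by 0.78 (adjusted p 0.021). The list's median was -0.36, close to the -0.30 of the brightest bin of all genes, and -0.10 after quantile normalization, and 1 member was called lower without either control slide. Of 25 postsynaptic scaffold and adhesion genes 3 were called lower, a smaller share than the 15.1% of all genes. Nlgn1 was 1 of them, with a difference of -0.99 (adjusted p 0.012). The 16 arrays gave 11 lower and 4 higher.

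The list that stood lowest was that of the choroid plexus epithelium. Of 26 genes tested, 20 were called and held lower, against 15.1% called and 11.8% held lower of all genes. Another, Lbp, was called higher without being held. The 16 arrays gave 22 and 3. The median was -1.61, against -0.07 for all genes, and 14 members were still called lower without the control arrays of slide 1 and 16 without those of slide 2. Cldn2, the claudin that makes its tight junctions leaky to ions, measured 0.70, 0.64, 0.70 and 0.61 in the controls and -1.92, -1.87, -1.86 and -1.88 in the anxiety-susceptible arrays. Its difference was -2.54 ± 0.09 (SE; adjusted p 0.0057). In bulk tissue, fewer cells of a type, less of the adjoining plexus in a dissection and less RNA per cell cannot be told apart.

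The water channel Aqp1, the chloride channel protein Clic6 and the membrane protein Mfrp differed by -2.52, -2.45 and -2.43, and the folate receptor Folr1 and the potassium channel Kcnj13 by -1.72 and -1.70. Sostdc1, a secreted BMP and Wnt antagonist, measured 2.15, 2.14, 2.01 and 2.12 in the controls and 0.08, 0.14, 0.14 and 0.18 in the anxiety-susceptible arrays. The difference was -1.97 ± 0.10 (SE; adjusted p 0.0058), with the groups well apart. Slco1a5, an organic anion carrier, Abca4, a lipid flippase, Enpp2, which makes lysophosphatidic acid, and Igf2 differed by -2.05, -1.88, -1.55 and -1.33.

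Ttr, the thyroxine carrier and the most abundant product of this epithelium, did not follow them. Its levels were 5.94, 5.83, 5.68 and 5.58 in the controls and 6.21, 6.30, 6.45 and 6.35 in the anxiety-susceptible arrays. All 4 lay above the controls, but the difference of 0.57 ± 0.18 (SE) did not pass (adjusted p 0.087); it was called after quantile normalization (0.53, adjusted p 0.019). The summed level of the list, dominated by such bright genes, was 6.91 to 7.19 in the controls and 6.66 to 6.84 in the anxiety-susceptible arrays.

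The other stressed groups stood lower still, with medians of -2.70 for the insusceptible and -2.61 for the depression-susceptible arrays against the same controls. The summed level was 4.28 to 4.31 and 5.01 to 5.22 there. The anxiety-susceptible arrays exceeded the insusceptible ones in 25 of the 26 genes, with a median difference of 1.19 (-0.02 over all genes), and 7 of these passed the test; 9 passed against the depression-susceptible arrays. The 7 were Sostdc1 (4.61), Mfrp (3.61), Cldn2 (3.17), Kcnj13 (3.05), Aqp1 (3.02), Slco1a5 (at least 12.0-fold) and Prlr, the prolactin receptor (at least 6.57-fold), with adjusted p of 0.03 to 0.037. For Ttr the difference was 3.43, with an adjusted p of 0.057, or 0.017 after quantile normalization.

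**Figure D4:**
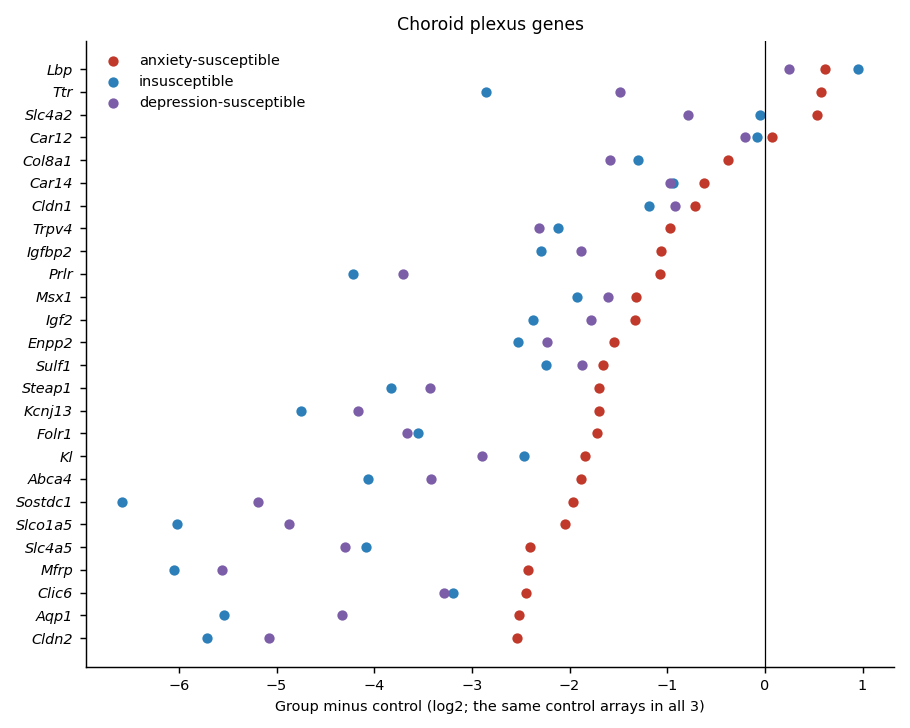
The 26 choroid plexus genes tested, from the lowest to the highest difference in the anxiety-susceptible group, with the difference of each stressed group from the same control arrays in log2 across. The anxiety-susceptible points (red) lie between the other stressed groups and 0 for most genes, and Ttr lies above 0 in that group only; points of probes not well above background, such as Slco1a5 and Prlr in the insusceptible arrays, are measured values whose change has only a bound.

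Counts for other markers of cells that a dissection could hold are to be read against all genes. Of those, 15.1% were called lower and 11.3% higher, and 41.5% and 29.4% over the 16 arrays. Among 20 ependymal and motile cilia genes 3 were called lower and 4 higher (7 and 10 over the 16 arrays). Of 20 pericyte, smooth muscle, fibroblast and meningeal genes 7 were lower and 2 higher (10 and 7). Of 15 endothelial genes limma called 0 in the fit of 6 samples, with 3 lower and 0 higher at an unadjusted p below 0.05, and 7 lower and 1 higher over the 16 arrays. Red blood cell genes gave 3 of 13 lower (6 lower and 2 higher over the 16 arrays); Hbb-b1, a beta globin, differed by -0.53 (adjusted p 0.027), and the depression-susceptible arrays stood 4.84 above the anxiety-susceptible ones (difference -4.84, adjusted p 0.011). Of 15 markers of neighbouring cortex, thalamus and striatum 4 were lower (6 lower and 3 higher over the 16 arrays).

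Of 22 pyramidal cell genes 4 were called lower and 3 held, near the 15.1% and 11.8% of all genes, and 1 was called higher (11 and 4 over the 16 arrays). Wfs1, an endoplasmic reticulum protein of CA1, measured 2.95, 2.92, 3.17 and 2.62 in the controls and 1.32, 1.27, 1.30 and 1.35 in the anxiety-susceptible arrays. The difference was -1.60 ± 0.12 (SE; adjusted p 0.0086), without overlap. Wfs1 differed from the same controls by -1.51 in the insusceptible and -0.71 in the depression-susceptible arrays. Pcp4, a calmodulin-binding protein of CA2, was called (-0.99, adjusted p 0.018) but not held (-0.55 after quantile normalization, adjusted p 0.075). Of 9 granule cell genes 2 were lower (4 over the 16 arrays); Prox1 (0.08) and C1ql2 (-0.03) did not pass, with adjusted p of 0.86 each.

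Of 24 microglial genes 5 were called lower, 3 of them held, near the shares of all genes (15.1% and 11.8%). Limma called 0 higher, against 11.3% of all genes, and at an unadjusted p below 0.05 it gave 7 lower and 0 higher. The 16 arrays gave 14 lower and 1 higher, a split further towards lower than the 41.5% and 29.4% of all genes. P2ry12, the purinergic receptor that guides resting microglial processes, measured -0.43, -0.41, -0.31 and -0.29 in the controls and -1.70, -1.58, -1.67 and -1.61 in the anxiety-susceptible arrays. The groups did not overlap (difference -1.28 ± 0.13, SE; adjusted p 0.013). The integrin Itgam differed by -1.12 (adjusted p 0.016; -0.59 with normexp), while Tmem119 (0.03) and Cx3cr1 (-0.02) did not pass. Astrocyte and oligodendrocyte lists held 1 of 17 genes higher and 1 lower, and 3 of 19 lower (5 higher and 6 lower, and 5 and 12, over the 16 arrays); Gfap (-0.04) and Mbp (-0.48) did not pass.

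In the protein-handling and metabolic lists more members were called lower than higher; over all genes 15.1% were called and 11.8% held lower. Of 30 endoplasmic reticulum stress and folding genes 10 were called lower, 8 of them held, and 1 higher (22 and 4 over the 16 arrays): the riser was Pdia2, whose change has only the lower bound given further on. Among the falls was Hsp90b1 at -1.37 (adjusted p 0.029), though Hspa5, the best known of them, did not pass (-0.29, adjusted p 0.19). Among 30 heat shock chaperones 6 were called lower and 3 held, near the shares of all genes. Over the 16 arrays 17 were lower and 4 higher, against 41.5% and 29.4% of all genes. Hspb1, a small heat shock protein, differed by -1.93 (adjusted p 0.034). Of 18 cholesterol synthesis and transport genes 7 were lower and 5 held (13 over the 16 arrays). Sc5d, a late enzyme of the pathway, measured 1.43, 1.39, 1.43 and 1.36 in the controls and 0.14, 0.11, 0.13 and 0.20 in the anxiety-susceptible arrays. Its difference was -1.26 ± 0.09 (SE; adjusted p 0.0082), and its insusceptible mean of 1.37 lay at the control level; the test against that group gave an adjusted p of 0.086, or 0.049 after quantile normalization. Hmgcs1, an early enzyme, differed by -0.78 (adjusted p 0.028).

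Proteasome subunits were lower for 20 of 35 genes, 7 of them held; cytosolic ribosomal proteins for 15 of 71, 6 held; and oxidative phosphorylation subunits for 15 of 69, 6 held. In the ribosomal and oxidative phosphorylation lists 1 and 3 genes were higher; over the 16 arrays 31, 54 and 47 were lower and 0, 4 and 7 higher. These are bright probes, and the list medians of -0.48, -0.39 and -0.37 became -0.25, -0.07 and -0.07 after quantile normalization, against -0.08 for all genes. The 6 held in each of the last 2 lists are a smaller share than the 11.8% of all genes. For the lists that follow, 11.3% of all genes were called higher and 15.1% lower. Of 34 interferon-stimulated and antigen presentation genes 2 rose, Isg20 and Ifi44 (both 1.39; adjusted p 0.017 and 0.014), and 4 fell; the 16 arrays gave 8 and 16. Of 16 core clock genes 3 were lower (8 lower and 4 higher over the 16 arrays), and the repressor Cry1 differed by -1.28 (adjusted p 0.03). In the extracellular matrix list, 6 of 32 rose and 5 fell (14 and 11 over the 16 arrays), with Col4a1, a basement membrane collagen, up by 1.12 (adjusted p 0.01) and Mmp2, a gelatinase, lower (difference -0.96, adjusted p 0.015).

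**Figure D5:**
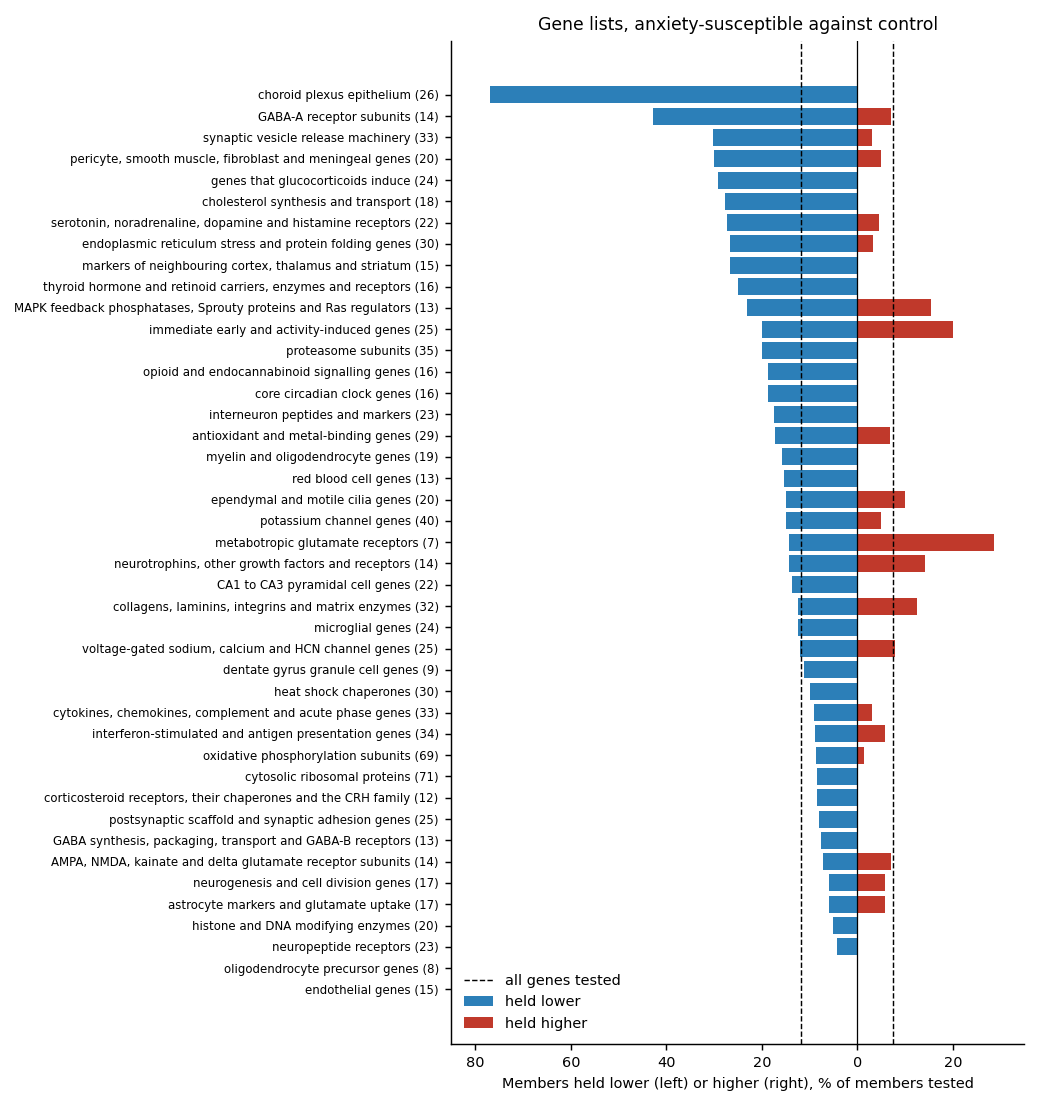
For each of the 43 gene lists, with the number of members tested in brackets, the bars give the share of members held lower (blue, to the left) and held higher (red, to the right) in percent; dashed lines mark the shares over all genes tested, 11.8% lower and 7.39% higher. The choroid plexus list has the longest bar and the GABA-A receptor list the next.

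The 12 largest rises by the naming rule are given first. Tbxt, the mesodermal T-box factor brachyury, measured -5.80, -5.95, -5.99 and -5.84 in the controls and -2.68, -2.68, -2.67 and -2.58 in the anxiety-susceptible arrays. It rose by 3.24 ± 0.10 (SE; adjusted p 0.0057), and the arrays did not overlap. It was followed by Col5a1, a fibrillar collagen chain (3.05), Rasgrf1, a calcium-responsive Ras activator of neurons (2.96), Tnfrsf25, a death receptor (2.86), Ints13, a subunit of the Integrator complex (2.78), and Bbx (2.75). RT1-M1-2, a class Ib histocompatibility gene, Trmt1, a tRNA methyltransferase, Fam228a, Plekhn1, Pla2g4b, a phospholipase A2, and Ttll3, a tubulin glycylase, rose by 2.73, 2.68, 2.63, 2.62, 2.52 and 2.48. Their adjusted p was 0.0057 to 0.011, and each kept its call without either control slide. All 12 also stood above the same controls in the insusceptible arrays, by 1.74 to 3.13, and in the depression-susceptible arrays, by 1.51 to 2.66; none was called against the insusceptible arrays, Tbxt coming closest (1.5, adjusted p 0.075, or 0.045 after quantile normalization).

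Fam111a and Cldn2 are among the 12 largest falls; the other 10 follow. Egfl8, a secreted EGF-domain protein, measured 3.31, 3.23, 2.92 and 2.74 in the controls and -0.12, -0.03, -0.02 and -0.03 in the anxiety-susceptible arrays, a difference of -3.10 ± 0.34 (SE; adjusted p 0.015). The control arrays of slide 1, which come first, lay above those of slide 2. Exosc3, of the RNA exosome, Notum, which inactivates Wnt proteins, Scrn2, Parp3, an ADP-ribosyltransferase, and the GABA-A subunit Gabrq differed by -2.92, -2.92, -2.85, -2.83 and -2.73, each with 1 control array left out as a spot outlier. Rapsn, which clusters acetylcholine receptors at the neuromuscular junction, Adam7, Adgrf3 and Inpp5k, an inositol phosphatase, differed by -2.69, -2.61, -2.60 and -2.53. The adjusted p of these 10 genes ran from 0.015 to 0.045. Without the control arrays of slide 1 or 2 the calls of Notum, Scrn2, Parp3, Gabrq, Adgrf3 and Inpp5k ended (adjusted p 0.051 to 0.11), as did that of Adam7 without slide 1 (0.057). In the insusceptible arrays the differences from the same controls were larger in all 10, at -3.01 to -3.99, though none of the 10 was called between the anxiety-susceptible and insusceptible arrays, and in the depression-susceptible arrays the differences were -0.22 to -0.85.

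Some genes were well above background in only 1 of the 2 groups, so the change has only a lower bound. Pdia2, a pancreatic protein disulphide isomerase, was not well above background in any control array and was at least 8.11-fold higher in the anxiety-susceptible arrays. Tnfrsf4, the T cell co-stimulatory receptor OX40, Ccdc33, Sfxn2 and Scn11a, a sodium channel of sensory neurons with 1 anxiety-susceptible array left out as a spot outlier, were at least 7.29-fold, 5.62-fold, 4.89-fold and 4.88-fold higher. In the other direction, Il6 was at least 3.65-fold lower, Ankrd34c 3.53-fold, the hormone Prl 3.01-fold, the netrin receptor Dcc 2.99-fold and Gh1, growth hormone, 2.95-fold. The adjusted p of these 10 genes was 0.0057 to 0.013. With normexp the 5 falls turned into differences of 0.03, 0.06, 0.20, 0.21 and 0.26, and the 5 rises stayed rises of 1.49 to 1.92. The fold bounds of these genes therefore belong to the main processing and do not hold with normexp.

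Of 1134 RefSeq non-coding probes tested, 124 were held higher (10.9%) and 69 held lower (6.08%). The shares among the 11317 messenger RNA genes were 7.39% and 11.8%. The transcript with the largest rise measured -4.56, -4.59, -4.93 and -4.92 in the controls and -1.13, -1.21, -1.16 and -1.11 in the anxiety-susceptible arrays. It rose by 3.60 ± 0.28 (SE; adjusted p 0.009), without overlap. The next largest rise was of 2.74. The transcript with the largest fall measured 1.26, 1.22, 1.06 and 1.03 in the controls and -0.65, -0.64, -0.60 and -0.57 in the anxiety-susceptible arrays, a difference of -1.76 ± 0.13 (SE; adjusted p 0.0083). The next 4 differences were -1.24 to -1.40.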

How the data were processed

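Total hippocampal RNA was depleted of ribosomal RNA and copied by random priming into Cy3 cRNA, per the labels. The deposited intensity values are scanner output, background-subtracted within each array by Feature Extraction 11.0.1.1 per the file headers; arrays were not adjusted to each other. A deposited table of log2 values, with a median of 7.5 on each array and no software named for it here, and served as an alternative.

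Control spots and outlier spots were left out, spots of a probe averaged, and each array's 75th percentile over probes subtracted on the log2 scale. The percentile over all spots had also been run, and the choice between them was made after both sets of calls had been seen. Of 24684 probes, 17883 were tested, those well above background on 4 arrays or more, with the brightest probe for each gene. Symbols came from RefSeq names of assembly GRCr8; the array's own build is rn4, so no probe positions are given. The number of arrays limits the precision.

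Limma 3.58.1 in R 4.3.3 was fitted to the 4 groups after averaging same-group arrays within a slide, with two-sided moderated tests, Benjamini-Hochberg adjustment over all probes tested and a threshold of 0.05; the lone anxiety-susceptible sample is assumed to vary like the other groups. Averaging was chosen because arrays of a slide were reported to differ no more than spots of a probe do. Repeated here, the variance ratio of arrays to spots in the anxiety-susceptible group was 0.706 for other targets but 1.72 for the 36 messenger RNA probes with several spots, so counts over 16 arrays are printed as well. P-values may measure technical spread only. A fold bound sets a dim probe at the lowest signal called well above background on each array. The fit was tested on simulated data. Tables were made with Python 3.11.15 and pandas 2.3.3. Scanner mean signals were not used: normexp (offset 50) was run on the median signals.

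The genes named were the 12 largest held rises and falls with the same sign under normexp and above background on all 8 arrays, the 5 largest bounds and the 5 largest non-coding changes each way, core members and up to 4 called rises and falls of each of 43 lists, and genes held in all 3 contrasts. Genes held in all 3 contrasts also had to be well above background on all 16 arrays. Some list members are counted but not reported singly here. The members and lists were chosen with earlier results of these data known. Alternatives were quantile normalization, normexp, the value table, other filters, 16 arrays with and without blocks, 2 groups only, and each array or control slide left out.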

Additional observations from a re-analysis of the deposited data

Results flagged for a closer look

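Within groups of 4 arrays, 18 values stood apart from the other 3 by more than Dixon's critical gap for groups of that size; chance alone marks about 1 group in 20, and 147 genes were looked at in both groups. Among controls these were the highest array of Bbx (-6.36), Pla2g4b (-6.58), Prlr (-2.64) and Cplx2 (-2.31), and the lowest of Trmt1 (-6.63), Mfrp (3.04), Gabra4 (0.37), Sik1 (-7.90) and Cx3cr1 (-2.08). Among anxiety-susceptible arrays they were the highest of Tbxt (-2.58), Dusp1 (1.21), Nr4a1 (1.30) and Cx3cr1 (-1.72), and the lowest of Egfl8 (-0.12), Npy (2.53), Ntf3 (-0.74), Cry1 (0.83) and Notum (-1.43). Notum's array lay at -1.43 where the nearest other lay at 0.28.

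The anxiety-susceptible and insusceptible arrays differed for 14 genes in limma. Each of these groups lay on 1 slide and entered as 1 sample, so the spread came from the other groups, and group and slide cannot be told apart; the count was 0 without either control slide. The anxiety-susceptible arrays were higher for Sostdc1 (4.61), Mfrp (3.61), Cldn2 (3.17), Kcnj13 (3.05), Aqp1 (3.02), Atf3 (2.52) and Scgb1c1 (2.22), and lower for Ifit1 (-2.94) and Aox1 (-2.29). Slco1a5, Cnmd, Vegfb, Prlr and Pon1 were not well above background in the insusceptible arrays, and were at least 12.0-fold, 7.07-fold, 6.95-fold, 6.57-fold and 5.09-fold higher in the anxiety-susceptible arrays.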

How the results depend on the processing

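The 2992 genes called against control became 5364 with normexp, 1104 with no filter on dim probes, 976 with only these 2 groups, 8022 over 16 arrays, 6158 with the slide as a random block, 7795 with the replicate block, and 441 and 419 without the control arrays of slide 1 and slide 2. Leaving out 1 array, which keeps all 6 samples in the fit, gave 2611 to 3058. Taking the percentile over all spots gave 3266 (1121 higher, 2145 lower). Against the insusceptible arrays the 14 became 50 (quantile), 9 (normexp), 24 (normexp with a scaled offset), 40 (value table), 0 (no filter; 902 at an unadjusted p below 0.05 by limma), 39 (above background on all 8 arrays), 3855, 1098 and 3361 (16 arrays, random block, replicate block) and 0 without either control slide. Against the depression-susceptible arrays the 46 became 1169, 3748, 286, 926, 8, 423, 6898, 4513 and 6567 in the same order, and 0 without either control slide; leaving out 1 array gave 29 to 47, the lowest without control array 3. Of list genes 290 were called, 460 with normexp, 97 with no filter, 91 with 2 groups, 722, 607 and 698 over 16 arrays, 44 and 49 without a control slide, and 241 to 298 with 1 array left out. Replicate numbers do not pair the arrays: deviations of control and anxiety-susceptible arrays of 1 number correlated at -0.037 to 0.025, and only the count with that block is given.

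Of 147 genes examined singly, 119 were called, 63 were no longer called without control slide 1 and 63 without slide 2. With each array left out in turn, 140 kept direction and side of the threshold. Leaving out 1 array removed no sample from the fit, because the other arrays of its group and slide remained. The 140 therefore says little about how firm the calls are. With normexp the direction turned for Il6 (0.03), Ankrd34c (0.06), Prl (0.20), Dcc (0.21), Gh1 (0.26), Htr1a (0.86), Htr5a (0.33) and Htr1b (0.07), and for Htr1a also with the scaled offset (0.12); all are dim, and the cause was not tested. Normexp moved the median of all probes from -0.006 to 0.189. Signal over background limits the dim probes.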
